A study of Mus musculus and Homo sapiens with 32 samples.

Results

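Injury and fibrosis under a TGF-β receptor inhibitor were examined in whole kidneys of Pcmt1 fl/fl mice. The comparison sets 3 kidneys with unilateral ureteral obstruction (UUO) and LY2109761 against 3 sham-operated kidneys given DMSO. The series holds no sham kidneys given LY2109761, so effects of the surgery and of the drug cannot be told apart in this comparison. These 6 libraries were chosen by their labels from the 32 samples of the series. The inhibitor group holds the libraries numbered 1, 3 and 4, and the sham group those numbered 1, 2 and 3. Both groups carry the floxed Pcmt1 allele, and no Cre driver, age, drug dose or time after surgery is given in the labels. Other groups of the same experiment enter where a difference was tested: 3 fl/fl kidneys with UUO and DMSO, and 3 kidneys each with UUO+LY and with sham surgery labelled tKO. A further 3 tKO kidneys with UUO and DMSO enter only the common estimate of the spread. tKO is a term the labels do not spell out. The labels do not say whether the libraries of a group came from separate mice, and the p-values rest on the spread between libraries within the 6 groups fitted together, which may be technical.

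Obstruction of a ureter raises the pressure in the kidney, injures the tubules and leads to inflammation and interstitial fibrosis. TGF-β is released from a latent complex in the matrix and binds a type II receptor, which activates a type I receptor kinase. The activated kinase phosphorylates Smad2 and Smad3, which join Smad4 and switch on matrix genes. LY2109761 blocks the kinase activity of the type I and type II receptors. Its target is therefore an enzymatic activity, and the RNA of the receptors, ligands and Smads is no direct readout of it.

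Between 13015669 and 19565376 reads were counted per library. Mitochondrially encoded genes took 12.6, 16.4 and 12.1% of the counts in UUO+LY kidneys, against 35.5, 35.3 and 30.8% in sham kidneys. Levels below are given as CPM, read counts relative to a library size scaled by TMM, and changes are log2 fold changes ± their standard error (SE). A gene was called where edgeR's quasi-likelihood test gave an adjusted p below 0.05 over all 19256 genes tested. Gene coordinates are those of the deposited table, whose build it does not name and which equal the GRCm38 annotation for 2.12% of 18700 genes. In bulk RNA, fewer cells of a type and less RNA per cell cannot be told apart. Pcmt1 itself (ENSMUSG00000019795, chromosome 10, 7505137 to 7556900), which encodes a protein-repair methyltransferase, had 31.3, 25.7 and 38.97 CPM in UUO+LY kidneys and 48.9, 43.4 and 42.8 CPM in sham kidneys. The libraries did not overlap, but the difference did not pass the test (log2 change -0.49 ± 0.23, edgeR adjusted p = 0.10). That outcome depends on the fit: Pcmt1 passed as lower when only the fl/fl libraries were fitted. Its sign turned positive when column totals replaced TMM. Both values are given in the closing section.

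Obstruction with the inhibitor changed a large share of the transcriptome relative to sham. In UUO+LY kidneys 4309 genes were higher and 3776 lower, which is 42.0% of the genes tested, 22.4% higher and 19.6% lower. For 55.7% of all genes every UUO+LY library lay on the same side of every sham library, and the median log2 change over all genes was 0.03. UUO without the inhibitor, set against the same 3 sham libraries, called 39.6% of the genes, with 4031 higher and 3594 lower. Between UUO+LY and UUO the libraries of 31.8% of all genes did not overlap, so separation of these groups is common by itself. The split between higher and lower genes depends on the scaling. Scaling by column totals gave 8017 higher and 991 lower genes, so that 89.0% of the calls were higher, against 53.3% with TMM, and the median change moved by 0.67. Log2 decreases smaller than about that shift can reverse their sign under column totals.

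All 3 TGF-β ligand genes were higher in UUO+LY kidneys than in sham kidneys. Tgfb1 (ENSMUSG00000002603, chromosome 7, 25386427 to 25404502), the main profibrotic ligand, had 79.8, 65.2 and 81.5 CPM in UUO+LY kidneys, 107, 98.5 and 76.3 CPM in UUO kidneys and 16.5, 13.8 and 16.1 CPM in sham kidneys. Every obstructed kidney lay above every sham kidney, and the libraries of the obstructed groups overlapped. The log2 change of Tgfb1 in UUO+LY against sham was 2.29 ± 0.22 (edgeR adjusted p = 1.4e-06), and in UUO against sham it was 2.60 ± 0.22. Tgfb2 rose by 2.92 ± 0.33 and Tgfb3 by 1.83 ± 0.29 on the log2 scale. Their levels were lower, at 16.4, 12.1 and 22.97 CPM for Tgfb2 in UUO+LY kidneys against 2.91, 1.70 and 2.19 CPM in sham kidneys.

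Of 5 receptor and coreceptor genes, 2 rose and none fell. Tgfbr2, the type II receptor, had 122, 123 and 149 CPM in UUO+LY kidneys, 192, 166 and 176 CPM in UUO kidneys and 77.8, 63.2 and 104 CPM in sham kidneys. All UUO+LY values lay between those of the other groups, and the call against sham was narrow (log2 change 0.68 ± 0.26, edgeR adjusted p = 0.042). It did not pass when UUO+LY replicate 1, 3 or 4 or sham replicate 1 or 2 was left out, with adjusted p between 0.061 and 0.16. Eng, an endothelial coreceptor, changed by 0.53 ± 0.18, and this call was also lost without UUO+LY replicate 3 or sham replicate 2. Tgfbr1, the type I receptor and direct drug target, had 84.1, 6.01 and 101 CPM in UUO+LY kidneys against 51.9, 53.2 and 52.99 CPM in sham kidneys. Replicate 3 stood far below the other libraries, and the difference did not pass (log2 change 0.27 ± 0.77, edgeR adjusted p = 0.81).

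Among the 13 genes for Smads, Ski corepressors and their regulators, 5 rose and none fell, with a median log2 change of 0.56. Smad3, the transducer most tied to fibrosis, had 73.6, 76.2 and 102 CPM in UUO+LY kidneys, 102, 79.01 and 71.4 CPM in UUO kidneys and 47.6, 42.8 and 40.00 CPM in sham kidneys. The change against sham was 0.95 ± 0.17 (edgeR adjusted p = 3.8e-04). Smad1, which transduces BMP signals, rose by 1.35 ± 0.16, the corepressor gene Tgif1 by 1.77 ± 0.24 and the ubiquitin ligase gene Smurf1 by 1.09 ± 0.20. The fifth was Skil, a corepressor that TGF-β signalling itself induces, with a log2 change of 2.37; it was named after its value had been seen. Its call was lost without UUO+LY replicate 1 (adjusted p = 0.053) or sham replicate 2 (adjusted p = 0.057). Smad2 (0.90 ± 0.49), the shared partner Smad4 (-0.08 ± 0.13) and the inhibitory feedback gene Smad7 (-0.38 ± 0.45) did not pass. Smad7 had 19.2, 23.3 and 25.8 CPM in UUO+LY kidneys, all below the 27.7, 30.1 and 31.2 CPM of sham kidneys.

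Genes for latency and activation of TGF-β rose in 5 of 9 cases and fell in none. Ltbp2, a part of elastic fibres from the family named latent TGF-β binding proteins, had 31.3, 43.7 and 50.99 CPM in UUO+LY kidneys. In sham kidneys it had 0.639, 0.148 and 0.322 CPM (log2 change 6.80 ± 0.66, edgeR adjusted p = 1.5e-06). Its name alone does not show that it holds TGF-β. Lrrc32, which displays latent TGF-β on cell surfaces, rose by 2.35 ± 0.39, and Itgb6, part of an epithelial integrin that frees the ligand, by 1.03 ± 0.21. Thbs1, a matrix activator of TGF-β, rose by 0.96 ± 0.32 with an edgeR adjusted p of 0.024. That call was lost without UUO+LY replicate 4 (adjusted p = 0.062) or sham replicate 2 (adjusted p = 0.11).

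Related ligands and their antagonists changed in both directions. In that list of 14 genes, 8 rose and 2 fell. The activin subunit genes were among the largest increases: Inhba had 9.51, 6.27 and 8.77 CPM in UUO+LY kidneys against 0.924, 0.222 and 0.257 CPM in sham kidneys, and Inhbb had 21.97, 20.7 and 34.9 CPM in UUO+LY kidneys against 1.71, 0.814 and 1.80 CPM in sham kidneys. The log2 changes were 4.12 ± 0.72 and 4.15 ± 0.37. Fstl1, a secreted follistatin-like protein, rose by 1.80 ± 0.16 and Bmp6, a BMP ligand, by 1.82 ± 0.22. Bmp4 did not pass (0.16 ± 0.32). The pair that fell, named after their values had been seen, was Bmp7, a BMP ligand of the tubule, with a log2 change of -0.50 that turned positive under column totals, and the activin antagonist Fst, with -2.26.

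Genes listed as responsive to TGF-β were mostly high in the inhibitor group, although many of them also answer to other signals. In this list 19 of 24 rose and none fell, with a median log2 change just over 2; in UUO against sham the same list had 18 higher, none lower and a median of 1.63. Tgfbi, a secreted adhesion protein, had 92.4, 77.2 and 114 CPM in UUO+LY kidneys, 108, 108 and 69.7 CPM in UUO kidneys and 8.67, 7.77 and 7.97 CPM in sham kidneys, a log2 change of 3.54 ± 0.23 against sham (edgeR adjusted p = 5.8e-08). The obstructed groups overlapped each other, and both stood above sham. Edn1, the vasoconstrictor endothelin, rose by 3.15 ± 0.25, and Pmepa1, a feedback inhibitor of the pathway, by 1.87 ± 0.16. The helix-loop-helix genes Id1 and Id3, which BMP signals induce, are counted in this list and rose by 0.93 ± 0.22 and 1.83 ± 0.18. Smad7, the feedback gene given above, is also in the list and did not pass.

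Matrix genes were raised almost throughout. For fibrillar collagens and collagen assembly 22 of 24 genes rose and 1 fell, and the median log2 change was 1.96; in UUO against sham 19 rose, none fell and the median was 1.29. Col1a1 (ENSMUSG00000001506, chromosome 11, 94827050 to 94843868), the main chain of type I collagen, had 398, 406 and 341 CPM in UUO+LY kidneys, 262, 317 and 240.1 CPM in UUO kidneys and 21.3, 15.3 and 27.5 CPM in sham kidneys. Its partner chain Col1a2 had 553, 578 and 441 CPM in UUO+LY kidneys, 312, 409 and 303 CPM in UUO kidneys and 50.1, 42.4 and 67.5 CPM in sham kidneys. In both genes the inhibitor group was the highest of the 3 groups, with no overlap, but UUO+LY and UUO libraries were separate in 31.8% of all genes. Against sham the log2 changes were 4.16 ± 0.30 and 3.30 ± 0.24 (edgeR adjusted p = 1.2e-07 and 1.0e-07); against UUO they were 0.48 ± 0.27 and 0.62 ± 0.22, and neither passed (edgeR adjusted p = 0.30 and 0.10). The cross-linking enzymes Lox and Loxl1 rose by 3.39 ± 0.25 and 2.60 ± 0.19. Plod2, a lysyl hydroxylase of collagen, did not pass (0.47 ± 0.21). P4ha1, a prolyl hydroxylase subunit, was the member that fell (-0.44 ± 0.15, edgeR adjusted p = 0.029); its call was lost when UUO+LY replicate 1 or 4 or sham replicate 1 or 3 was left out (adjusted p between 0.080 and 0.094), and its sign under column totals.

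**Figure D1:**
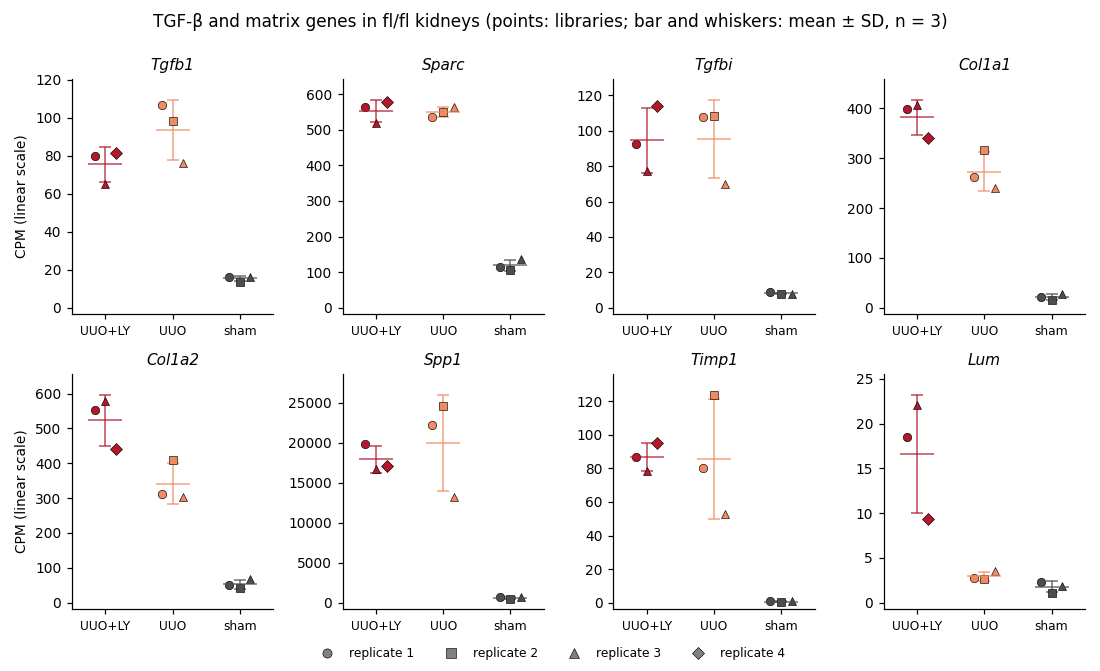
CPM (linear scale) of 8 TGF-β and matrix genes in each fl/fl library, with UUO+LY left, UUO in the middle and sham right; marker shapes give the replicate number, and bars and whiskers the mean ± SD of 3 libraries. All UUO+LY libraries lie above all sham libraries in each panel, and in Col1a1, Col1a2 and Lum they also lie above all UUO libraries.

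Matrix glycoproteins and proteoglycans rose in 19 of 20 cases, with a median log2 change of 2.05. Spp1, osteopontin, an adhesion protein of injured tubules, was among the most abundant transcripts, at 19888, 16743 and 17118 CPM in UUO+LY kidneys, 22189.9, 24626 and 13166 CPM in UUO kidneys and 731, 506 and 688 CPM in sham kidneys (log2 change against sham 4.80 ± 0.28). Sparc, a collagen-binding glycoprotein, had 563, 519 and 578 CPM in UUO+LY kidneys against 114, 107 and 136 CPM in sham kidneys. Its groups were tight, and the log2 change was 2.22 ± 0.14 (edgeR adjusted p = 5.6e-08). Postn, periostin, a matricellular protein of fibrotic kidneys, changed by 4.52 ± 0.66. Lum, a small proteoglycan that organizes collagen fibrils, changed by 3.22 ± 0.37, and the microfibril gene Mfap5 by 3.61 ± 0.44. Elastin, Eln, was the member that did not pass, with 48.2, 57.4 and 38.5 CPM in UUO+LY kidneys and 42.1, 24.8 and 29.5 CPM in sham kidneys (log2 change 0.58 ± 0.24, edgeR adjusted p = 0.062). It passed without UUO+LY replicate 4 (adjusted p = 0.039) or sham replicate 1 (adjusted p = 0.018).

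The sequences of a pair of matrix genes are shown because both rose in every UUO+LY library and Smad proteins bind the short element CAGAC. The 250 bases before each RefSeq start site are given from build GRCm38.p6, plus strand, chr6:4505368-4505617 for Col1a2 and chr5:104434861-104435110 for Spp1, with CAGAC on either strand in capitals.
Col1a2: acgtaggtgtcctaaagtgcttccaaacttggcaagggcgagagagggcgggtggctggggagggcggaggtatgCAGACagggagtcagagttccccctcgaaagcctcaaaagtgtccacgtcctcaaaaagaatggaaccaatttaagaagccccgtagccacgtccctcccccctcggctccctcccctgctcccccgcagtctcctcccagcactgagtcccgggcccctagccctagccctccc
Spp1: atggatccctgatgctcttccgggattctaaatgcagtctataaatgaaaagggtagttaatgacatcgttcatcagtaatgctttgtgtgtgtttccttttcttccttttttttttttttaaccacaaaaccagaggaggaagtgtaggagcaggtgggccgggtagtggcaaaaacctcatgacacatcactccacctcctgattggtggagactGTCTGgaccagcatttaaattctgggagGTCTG
Col1a2 holds 1 match and Spp1 holds 2, both on the minus strand, and 42.2% of all 32851 windows of this length hold at least 1. The element is thus common, and a match is a description of the letters only.

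The basement membrane list was mixed, with 6 of 20 genes higher, 4 lower and a median log2 change of 0.27. Col4a2, a chain of the ubiquitous type IV collagen, had 506, 447 and 537 CPM in UUO+LY kidneys against 188, 177 and 179 CPM in sham kidneys, a log2 change of 1.45 ± 0.17. The chains Col4a3 and Col4a4, known from the glomerular basement membrane network, went the other way. Of 12 podocyte genes, given below, 4 rose and none fell. The cell types behind the fall of Col4a3 and Col4a4 were not tested. Col4a3 had 62.97, 89.6 and 92.9 CPM in UUO+LY kidneys against 391, 427 and 373 CPM in sham kidneys (log2 change -2.28 ± 0.21), and Col4a4 changed by -1.60 ± 0.10. Nid1, nidogen, a linker of laminin and collagen, rose by 1.65 ± 0.28.

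Matrix proteases and their inhibitors rose in 13 of 17 cases and fell in 1, with a median log2 change of 2.37. Timp1, an inhibitor of metalloproteases and a marker of fibrosis, had 87.1, 78.6 and 95.1 CPM in UUO+LY kidneys, 80.2, 124 and 53.1 CPM in UUO kidneys and 0.853, 0.222 and 0.772 CPM in sham kidneys. Its log2 change against sham was 7.11 ± 0.44 (edgeR adjusted p = 4.0e-08). Mmp7, matrilysin, secreted by injured tubules, had 23.9, 15.8 and 23.2 CPM in UUO+LY kidneys and 0, 0.148 and 0 CPM in sham kidneys, where 2 libraries held no count. Mmp14, a membrane-bound collagenase, rose by 3.59 ± 0.24, and Adamts2, which trims procollagen, by 2.84 ± 0.19. Plau, urokinase, did not pass (0.39 ± 0.22). Timp3, named after its value had been seen, was the member that fell, with a log2 change of -0.44 (edgeR adjusted p = 0.044). That call was lost when UUO+LY replicate 1, 3 or 4 or sham replicate 2 or 3 was left out, with adjusted p between 0.077 and 0.24, and its sign under column totals.

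Stromal markers rose in 11 of 18 cases and fell in none, with a median log2 change of 1.18, against 8 higher, 1 lower and a median of 0.70 in UUO against sham. Pdgfrb, the receptor of pericytes and fibroblasts, had 171, 145 and 193 CPM in UUO+LY kidneys, 171, 175 and 156 CPM in UUO kidneys and 36.7, 36.02 and 35.4 CPM in sham kidneys (log2 change against sham 2.24 ± 0.19). Thy1, a fibroblast surface protein, rose by 4.52 ± 0.43, Ccn2, connective tissue growth factor, by 1.89 ± 0.27, and the actin-binding gene Tagln by 2.11 ± 0.31. Acta2, smooth muscle actin and the usual myofibroblast marker, did not pass (log2 change 1.002, edgeR adjusted p = 0.053), but passed without sham replicate 1 (log2 change 1.35, adjusted p = 0.026) and under 4 other settings, DESeq2, the fl/fl libraries alone, the compared groups alone and column totals, with adjusted p between 0.0062 and 0.038; it was named after its value had been seen. The transcription factors of epithelial-mesenchymal transition rose in 7 of 8 cases, with a median of 1.61. Their levels stayed low. Snai2 had 7.39, 8.25 and 6.40 CPM in UUO+LY kidneys against 2.20, 1.33 and 1.29 CPM in sham kidneys (log2 change 2.19 ± 0.25), Twist1 changed by 2.63 ± 0.39, Foxc2 by 1.76 ± 0.19 and Zeb1 by 1.12 ± 0.15.

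**Figure D2:**
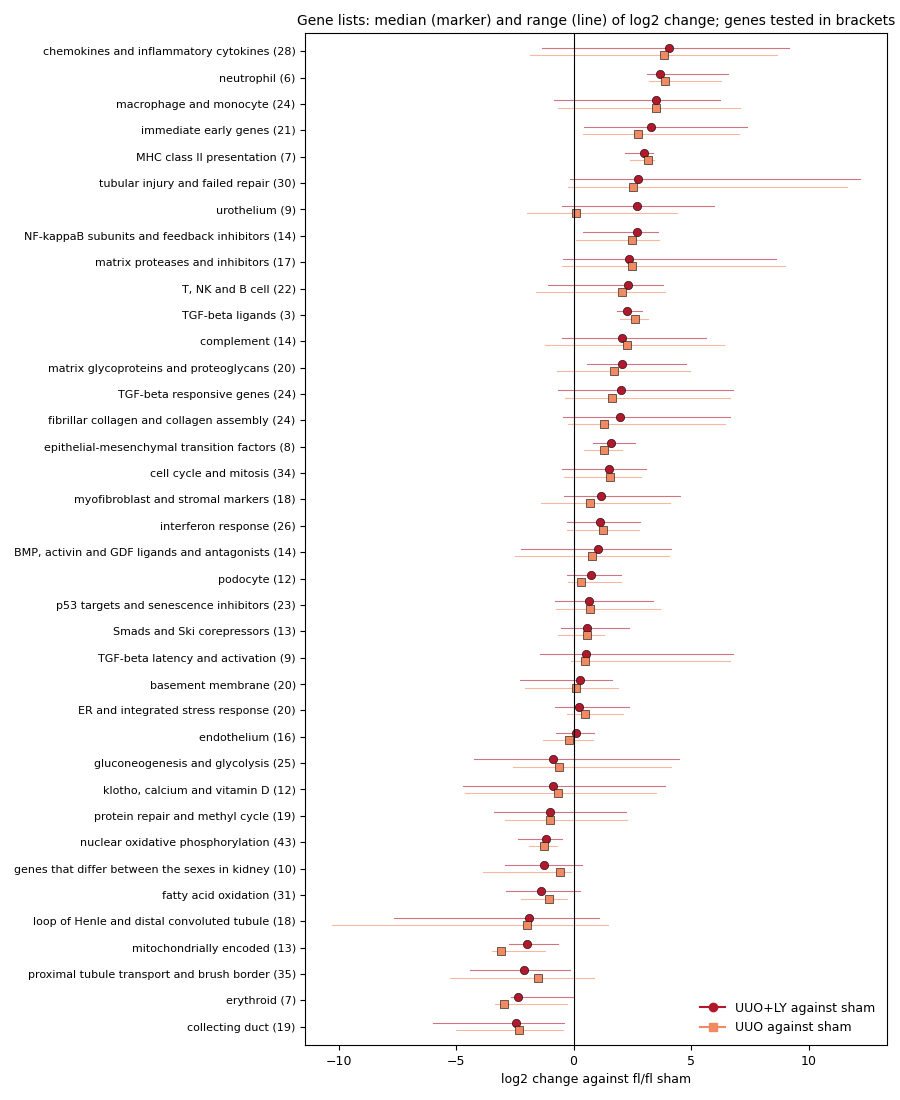
Log2 change against fl/fl sham for 38 gene lists, with the median as a marker and the range over the tested members as a line, UUO+LY as red circles above UUO as orange squares. Both comparisons use the same 3 sham libraries. For UUO+LY the plotted medians run between 4.05 for chemokines and -2.44 for collecting duct genes; for UUO they run between 3.88 for neutrophil genes and -3.09 for mitochondrially encoded genes.

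Tubular injury genes were high in UUO+LY kidneys. Of 30 genes 25 rose and none fell in UUO+LY against sham, with a median log2 change of 2.75, and 27 rose and none fell in UUO against sham, with a median of 2.54. No gene of the list passed in UUO+LY against UUO, where 5.15% of all genes did. Havcr1 (ENSMUSG00000040405, chromosome 11, 46625907 to 46670405), which encodes KIM-1, the standard marker of proximal tubule injury, had 862, 847 and 982 CPM in UUO+LY kidneys, 1691, 1418 and 1225 CPM in UUO kidneys and 3.20, 1.70 and 2.06 CPM in sham kidneys. The 3 groups were separate, with UUO+LY below UUO, and 31.8% of all genes were separate between UUO+LY and UUO. The log2 change against sham was 8.59 ± 0.33 (edgeR adjusted p = 9.1e-10), and against UUO it was -0.69 ± 0.23, which did not pass (edgeR adjusted p = 0.096). Vcam1, an adhesion molecule of tubules that fail to recover, had 486, 468 and 439.8 CPM in UUO+LY kidneys against 12.01, 8.06 and 7.52 CPM in sham kidneys (log2 change 5.66 ± 0.32). Krt20, a keratin induced in injured tubules, had 64.9, 83.7 and 91.6 CPM in UUO+LY kidneys against 0.071, 0.148 and 0.45 CPM in sham kidneys. Urothelial genes, given below, also rose in 6 of 9 tested cases, and their part in the value of Krt20 was not tested. Anxa3, a calcium-dependent membrane-binding annexin, rose by 3.25 ± 0.18.

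Among named genes past the threshold, with a mean of at least 5 CPM over the 6 libraries and no overlap of the groups, the 12 largest increases were Sprr2f, Arhgap36, Cxcl2, Mmp7, Havcr1, Il36a, Krt20, Cxcl5, Cxcl1, Ccl7, Ivl and Timp1. Sprr2f and Ivl encode proteins of the cornified envelope of squamous epithelia. Sprr2f had 27.5, 29.8 and 41.8 CPM in UUO+LY kidneys and no count in any sham library. Against a floor of 3 counts over the sham group this is at least 482-fold higher, a bound that covers counting error only. Arhgap36, a regulator of protein kinase A, also had no count in sham kidneys and 12.4, 10.96 and 11.8 CPM in UUO+LY kidneys, at least 169-fold higher. Ivl, involucrin, had 23.2, 79.4 and 42.7 CPM in UUO+LY kidneys, 11.4, 15.9 and 6.81 CPM in UUO kidneys and 0.213, 0.074 and 0.643 CPM in sham kidneys. Il36a, an epithelial cytokine of the interleukin-1 family, had 27.2, 33.7 and 44.01 CPM in UUO+LY kidneys and 0.142, 0.148 and 0 CPM in sham kidneys. The part of urothelium or squamous epithelium in the values of Sprr2f, Ivl and Il36a was not tested.

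Nephron transport genes fell over the whole length of the tubule. In the proximal tubule list 31 of 35 genes fell and none rose, with a median log2 change of -2.09, against 27 lower, 1 higher and a median of -1.53 in UUO against sham. Mep1a, a brush border protease, had 259.6, 309 and 289 CPM in UUO+LY kidneys, 452, 346 and 556 CPM in UUO kidneys and 1618, 1515 and 1214 CPM in sham kidneys (log2 change against sham -2.34 ± 0.21). Cubn, cubilin, the receptor for filtered proteins, changed by -1.97 ± 0.19. Ggt1, the glutathione-degrading brush border enzyme, changed by -2.05 ± 0.21, and Slc3a1, a subunit of the cystine transporter, by -1.50 ± 0.15. G6pc, which completes gluconeogenesis, had 21.7, 9.70 and 13.2 CPM in UUO+LY kidneys against 171, 211 and 473 CPM in sham kidneys.

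For the loop of Henle and the distal convoluted tubule 13 of 18 genes fell and 2 rose, with a median of -1.90. Calb1, the cytosolic calcium carrier of the distal tubule, had 18.4, 17.6 and 31.3 CPM in UUO+LY kidneys against 505, 445 and 791 CPM in sham kidneys, a log2 change of -4.69 ± 0.43 (edgeR adjusted p = 8.8e-07). S100g, a smaller calcium carrier, had 57.7, 59.3 and 60.7 CPM in UUO+LY kidneys against 1038, 1000.1 and 1062 CPM in sham kidneys. Slc8a1, the basolateral sodium-calcium exchanger, changed by -2.94 ± 0.28, and Wnk4, a kinase that controls salt transport, by -1.81 ± 0.13. The members that rose, named after their values had been seen, were Cldn16, a tight junction protein for magnesium, with 1.06, and the calcium channel Trpv5, with 0.97. Umod, uromodulin, the product of the thick ascending limb, had 821, 763 and 1042 CPM in UUO+LY kidneys and 745, 1007 and 754 CPM in sham kidneys. The groups overlapped, and the difference did not pass (log2 change 0.07 ± 0.21, edgeR adjusted p = 0.82).

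Collecting duct genes fell in 18 of 19 cases, with a median of -2.44. Slc4a1, the chloride-bicarbonate exchanger of acid-secreting cells and of red cells, had 2.64, 1.19 and 0.921 CPM in UUO+LY kidneys against 96.2, 104 and 106 CPM in sham kidneys, a log2 change of -6.00 ± 0.59. The red cell genes of the erythroid list also fell, in 5 of 7 cases, and their summed level was 237 to 333 CPM in UUO+LY kidneys against 695 to 1508 CPM in sham kidneys; their part in the value of Slc4a1 was not tested. Slc26a4, pendrin, of base-secreting cells, changed by -2.86 ± 0.21, and the proton pump subunit Atp6v1b1 by -2.24 ± 0.15. Aqp4, a basolateral water channel of principal cells, had 8.32, 7.53 and 9.06 CPM in UUO+LY kidneys against 278, 165 and 224 CPM in sham kidneys. The potassium channel subunit Kcne1 changed by -2.58 ± 0.25.

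By the same conditions the 12 largest decreases were a gene model of Nnt, Ces1g, Slc4a1, Map2, Corin, Nccrp1, Aqp4, Calb1, Cyp2d12, Kcnt1, Ablim1 and Cckar. The level of Ablim1 differed widely within the tKO UUO+LY group, as given in the closing section. Corin, the protease that activates atrial natriuretic peptide, had 0.414, 0.396 and 0.582 CPM in UUO+LY kidneys against 17.97, 19.3 and 11.96 CPM in sham kidneys (log2 change -5.11 ± 0.31). Kcnt1, a sodium-activated potassium channel, had 1.03, 1.98 and 2.62 CPM in UUO+LY kidneys against 59.7, 47.6 and 30.6 CPM in sham kidneys. Nccrp1, an F-box associated protein, changed by -5.03 ± 0.85, the cytochrome P450 gene Cyp2d12 by -4.64 ± 0.75 and the carboxylesterase gene Ces1g by -6.13 ± 0.90. Map2, a microtubule-associated protein, had 0.569, 0.198 and 0.727 CPM in UUO+LY kidneys, 5.16, 5.09 and 0.697 CPM in UUO kidneys and 21.5, 14.9 and 18.5 CPM in sham kidneys. Nnt, the mitochondrial transhydrogenase, has 2 overlapping gene models on chromosome 13 between which the counts can be split, so its place in this ranking, which rests on 1 model, is uncertain. The sum of both models was 78.7, 68.3 and 18.6 CPM in UUO+LY kidneys, 121, 93.4 and 103 CPM in UUO kidneys, and 177, 198 and 206 CPM in sham kidneys.

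Podocyte and endothelial genes passed in shares near that of all genes, of which 42.0% were called. Podocyte genes rose in 4 of 12 cases and fell in none: the transcription factor gene Tcf21 (1.78 ± 0.22) and the slit diaphragm gene Nphs1 (1.06 ± 0.22) were among them. Tcf21 is also expressed by stromal cells, and 11 of 18 genes of the stromal list rose; their part in its value was not tested. Endothelial genes rose in 4 of 16 cases and fell in 2, with a median of 0.10. Pecam1, an adhesion molecule of endothelium and leukocytes, had 94.4, 71.7 and 81.96 CPM in UUO+LY kidneys against 47.6, 40.2 and 49.00 CPM in sham kidneys (log2 change 0.86 ± 0.13).

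Leukocyte genes were high in every obstructed kidney. Macrophage and monocyte genes rose in 20 of 24 cases and fell in 1, with a median log2 change of 3.52; in UUO against sham the counts were also 20 and 1, with a median of 3.51. Their summed level was 1356 to 1616 CPM in UUO+LY kidneys, 1378 to 1740 CPM in UUO kidneys and 271 to 297 CPM in sham kidneys. Fcgr1, a high-affinity antibody receptor of macrophages, had 22.6, 19.7 and 18.2 CPM in UUO+LY kidneys against 0.781, 1.11 and 1.29 CPM in sham kidneys (log2 change 4.24 ± 0.21, edgeR adjusted p = 5.8e-09). Mrc1, the mannose receptor, rose by 3.93 ± 0.25, and the complement subunit C1qc by 3.83 ± 0.28. Csf1r, the growth factor receptor of macrophages, had 108, 111 and 97.6 CPM in UUO+LY kidneys and 132, 122 and 98.00 CPM in sham kidneys. Its groups overlapped and it did not pass, unlike most of the list (log2 change -0.15 ± 0.14, edgeR adjusted p = 0.43). Cd163, a scavenger receptor, stayed below 1 CPM in every library. Mertk, a receptor for dying cells, was the member that fell, with -0.82, and was named after its value had been seen.

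Antigen presentation and lymphocyte genes rose alongside. All 7 genes of MHC class II presentation rose, with a median of 2.99. H2-Aa had 704, 593 and 566 CPM in UUO+LY kidneys, 489.98, 734 and 517 CPM in UUO kidneys and 49.6, 65.2 and 63.5 CPM in sham kidneys, and H2-Eb1 changed by 3.39 ± 0.23. T, NK and B cell genes rose in 18 of 22 tested cases and fell in 1, with a median of 2.31. Cd4, the helper T cell coreceptor, had 3.88, 6.07 and 3.10 CPM in UUO+LY kidneys against 0.284, 0.148 and 0.514 CPM in sham kidneys, and Lck, the kinase at that coreceptor, changed by 2.31 ± 0.28. The member that fell was Mzb1, of plasma cells, with -1.09, named after its value had been seen. Of 10 neutrophil genes 6 passed the filter on low counts, so the 6 that rose are no share of the whole list. Csf3r, the G-CSF receptor, had 21.7, 25.8 and 24.04 CPM in UUO+LY kidneys against 2.91, 1.70 and 1.35 CPM in sham kidneys, and S100a9, a calcium-binding alarm protein, changed by 3.47 ± 0.47.

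Chemokines and inflammatory cytokines had a median of 4.05, with 25 of 28 genes higher and 1 lower; in UUO against sham it was 3.83, with 23 higher and 1 lower. Cxcl1, which attracts neutrophils, had 143, 282 and 189 CPM in UUO+LY kidneys, 102, 81.8 and 57.9 CPM in UUO kidneys and 1.14, 0.962 and 0.772 CPM in sham kidneys. The UUO+LY libraries were the highest of the 3 groups, but the difference from UUO did not pass (edgeR adjusted p = 0.33), while that from sham did (log2 change 7.74 ± 1.09). Cxcl2, a second neutrophil chemokine, had 16.3, 22.05 and 14.1 CPM in UUO+LY kidneys against 0, 0.074 and 0 CPM in sham kidneys. Ccl2, the main monocyte chemokine, had 23.1, 38.6 and 27.5 CPM in UUO+LY kidneys, 36.97, 29.8 and 27.4 CPM in UUO kidneys and 0.71, 0.37 and 0.514 CPM in sham kidneys. Ccl7, of the same family, changed by 7.62 ± 0.70, Cxcl5 by 7.75 ± 0.86, the membrane-bound Cxcl16 by 2.30 ± 0.15 and Il34, a second ligand of Csf1r, by 2.65 ± 0.18. Cxcl12, a chemokine of stromal and endothelial cells, fell (-1.33; named after its value had been seen).

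Genes of the NF-κB pathway rose in 13 of 14 cases, with a median of 2.68 and none lower. Birc3, an inhibitor of apoptosis, had 76.5, 101 and 113 CPM in UUO+LY kidneys, 64.2, 71.2 and 54.1 CPM in UUO kidneys and 11.5, 10.5 and 9.32 CPM in sham kidneys (log2 change against sham 3.22 ± 0.17). The coactivator gene Bcl3 rose by 3.58 ± 0.24, the adhesion gene Icam1 by 3.14 ± 0.20 and the feedback inhibitor gene Nfkbia by 2.11 ± 0.15. The sequences before Cxcl1 and Cxcl2 are shown because these neighbouring genes stand among the 12 largest increases and NF-κB is a known inducer of both. They span chr5:90890995-90891244 and chr5:90903649-90903898 on the plus strand of GRCm38.p6, as 250 bases before the RefSeq start, with matches to the NF-κB pattern (GGG, then 3 bases of any kind, then TTCC) on either strand in capitals.
Cxcl1: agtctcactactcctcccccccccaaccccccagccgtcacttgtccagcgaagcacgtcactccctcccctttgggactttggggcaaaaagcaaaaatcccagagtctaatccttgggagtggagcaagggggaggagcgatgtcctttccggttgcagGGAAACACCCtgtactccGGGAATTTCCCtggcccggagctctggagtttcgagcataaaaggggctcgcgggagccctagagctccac
Cxcl2: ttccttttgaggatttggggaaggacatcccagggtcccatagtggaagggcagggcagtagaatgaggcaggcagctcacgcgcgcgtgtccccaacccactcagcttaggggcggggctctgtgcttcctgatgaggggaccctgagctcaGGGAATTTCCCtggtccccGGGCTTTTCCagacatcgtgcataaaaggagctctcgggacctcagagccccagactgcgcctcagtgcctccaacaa
Each window holds 3 matches counted over both strands, of which 2 overlap in a single stretch, and 4.65% of all windows hold at least 1. The windows of Col1a2 and Spp1 hold none of this pattern, and for CAGAC the Cxcl2 window holds 2 matches and the Cxcl1 window none.

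Interferon-response genes rose in 21 of 26 cases and fell in none, at a lower median of 1.13. Mx1, an antiviral GTPase, had 9.67, 12.7 and 9.55 CPM in UUO+LY kidneys against 0.924, 1.70 and 1.80 CPM in sham kidneys (log2 change 2.84 ± 0.40), Oasl2 changed by 1.80 ± 0.25 and the guanylate-binding gene Gbp2 by 1.64 ± 0.25. Complement genes rose in 11 of 14 cases and fell in none, with a median of 2.07. C3, the central component, had 987, 938 and 1352 CPM in UUO+LY kidneys, 2246, 1776 and 1559.5 CPM in UUO kidneys and 41.6, 12.4 and 11.6 CPM in sham kidneys. The 3 groups did not overlap, but UUO+LY against UUO did not pass (edgeR adjusted p = 0.25). C4b rose by 3.04 ± 0.27, whereas Cfb of the alternative pathway did not pass (0.13 ± 0.27).

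**Figure D3:**
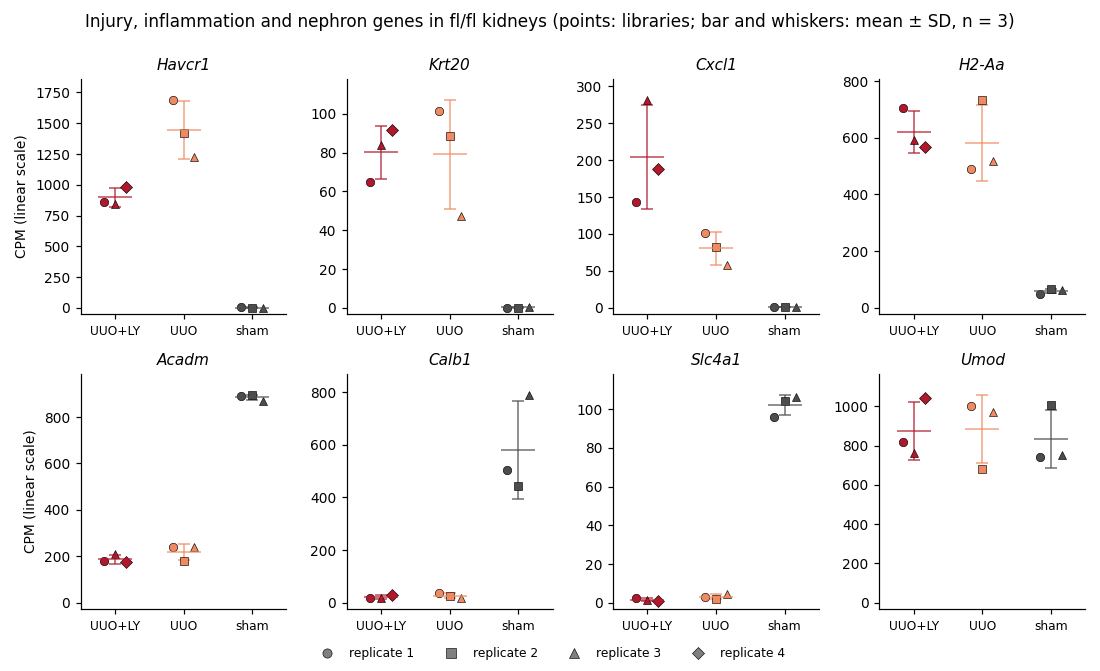
CPM (linear scale) of 8 injury, inflammation and nephron genes in each fl/fl library, with UUO+LY left, UUO in the middle and sham right; marker shapes give the replicate number, and bars and whiskers the mean ± SD of 3 libraries. Havcr1, Krt20, Cxcl1 and H2-Aa are high in both obstructed groups, Acadm, Calb1 and Slc4a1 are low in both, and Umod overlaps between the groups.

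Energy metabolism genes fell together. In fatty acid oxidation 29 of 31 tested genes fell and none rose, with a median log2 change of -1.38, and in nuclear oxidative phosphorylation 42 of 43 fell and none rose, with a median of -1.18. Acadm, the medium-chain acyl-CoA dehydrogenase, had 178, 210.1 and 176 CPM in UUO+LY kidneys, 241, 180.1 and 239 CPM in UUO kidneys and 889, 894 and 871 CPM in sham kidneys (log2 change against sham -2.23 ± 0.17, edgeR adjusted p = 1.8e-07). Eci2, an isomerase of unsaturated fatty acids, changed by -1.11 ± 0.12 and the dehydrogenase gene Hadh by -1.38 ± 0.17. Sdhb, a subunit of complex II, had 129.6, 122 and 115 CPM in UUO+LY kidneys against 434, 453 and 429 CPM in sham kidneys, and Uqcrc1, of complex III, changed by -1.69 ± 0.14. Under column totals 4 of the genes named here and below, Eci2, Hadh, Hadha and Cox5b, no longer passed.

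Mitochondrially encoded genes fell in 12 of 13 cases, with a median of -1.97, against -3.09 in UUO against sham. Their mean share of counts was 20.2 percentage points lower in UUO+LY kidneys than in sham kidneys and 6.20 points higher than in UUO kidneys, where it was 7.67, 7.43 and 7.43%. Each difference had an exact permutation p of 0.10 (two-sided), the smallest that 3 against 3 libraries can give. mt-Nd4l, a complex I subunit, had 925, 1352 and 1135 CPM in UUO+LY kidneys, 759.7, 689.97 and 632 CPM in UUO kidneys and 7839, 8725 and 6516 CPM in sham kidneys (log2 change against sham -2.76 ± 0.47).

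Of 25 sugar metabolism genes, 14 fell and 3 rose, with a median of -0.88. The hexokinase gene Hk2, which commits glucose to the cell, was an exception, with 23.3, 28.3 and 43.8 CPM in UUO+LY kidneys against 2.49, 0.888 and 0.9 CPM in sham kidneys (log2 change 4.48 ± 0.45), and the pyruvate kinase gene Pklr rose by 1.75 ± 0.16. In the list of protein repair and the methyl cycle, which holds Pcmt1, 12 of 19 tested genes fell and 1 rose, with a median of -1.01. Ahcy, which clears S-adenosylhomocysteine, the product of methyltransferases such as Pcmt1, had 43.2, 44.2 and 39.5 CPM in UUO+LY kidneys against 303, 252 and 209 CPM in sham kidneys (log2 change -2.59 ± 0.19). Cbs and Cth, which turn homocysteine into cysteine, changed by -2.55 ± 0.24 and -2.41 ± 0.23, and the betaine-homocysteine methyltransferase gene Bhmt2 by -2.69 ± 0.30. The member that rose was Nnmt, nicotinamide methyltransferase, with 2.24, named after its value had been seen.

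Kl, klotho, the coreceptor of the phosphate hormone FGF23, had 90.8, 83.05 and 94.2 CPM in UUO+LY kidneys, 184, 137 and 150.3 CPM in UUO kidneys and 332, 459.7 and 552 CPM in sham kidneys (log2 change against sham -2.33 ± 0.23). In its list of 12 genes 7 fell and 3 rose. Renin-angiotensin genes fell in 4 of 9 tested cases and none rose; Ace, the converting enzyme, changed by -1.95 ± 0.19, and Ren1, renin, did not pass (0.55 ± 0.48). Among NRF2 targets and iron-handling genes 12 of 25 fell and 2 rose. Catalase, Cat, had 295, 288 and 296 CPM in UUO+LY kidneys against 987, 1006 and 957 CPM in sham kidneys, the mitochondrial superoxide dismutase Sod2 changed by -1.53 ± 0.16 and the quinone reductase Nqo1 by -2.13 ± 0.32.

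Cell cycle genes rose in 28 of 34 cases and fell in 1, with a median of 1.498, against 29 and 1 with a median of 1.54 in UUO against sham. Ube2c, a ubiquitin-conjugating enzyme of mitosis, had 13.2, 15.1 and 8.92 CPM in UUO+LY kidneys against 0.853, 1.41 and 2.06 CPM in sham kidneys (log2 change 3.09 ± 0.38), the mitotic kinase Cdk1 changed by 2.77 ± 0.32 and the replication licensing gene Mcm3 by 2.26 ± 0.29. Ccnd1, cyclin D1, fell (-0.51; named after its value had been seen), with a positive sign under column totals. Among p53 targets and senescence inhibitors 14 of 23 rose and 2 fell, with Btg2, an antiproliferative gene, at 2.22 ± 0.34 and Gadd45b, a stress sensor, at 1.91 ± 0.24. In the list of ER and integrated stress 6 of 20 rose and 1 fell, near the 22.4% of all genes that rose: Asns, asparagine synthetase, changed by 1.80 ± 0.17 and the pseudokinase gene Trib3 by 2.35 ± 0.39.

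Immediate early genes, which encode fast-responding transcription factors, rose in 20 of 21 cases, with a median of 3.28, against 16 of 21 and 2.74 in UUO against sham. Egr2 had 24.5, 23.4 and 33.2 CPM in UUO+LY kidneys, 30.6, 4.22 and 11.2 CPM in UUO kidneys and 0.213, 0.444 and 0.0643 CPM in sham kidneys. The AP-1 genes Junb and Fosl2 changed by 3.36 ± 0.32 and 3.03 ± 0.26, and Klf6, a zinc finger factor of injured tubules, by 2.90 ± 0.19. These genes also respond to the handling of tissue, which was not recorded in the labels; its part was not tested.

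Markers of tissues next to the kidney differed between libraries. Urothelial genes rose in 6 of 9 tested cases in UUO+LY against sham, with a median of 2.698, and in 3 of 9 in UUO against sham, with a median of 0.11. Their summed level was 344, 711 and 448 CPM in UUO+LY kidneys, 131, 225 and 77.4 CPM in UUO kidneys and 101, 47.6 and 193 CPM in sham kidneys. UUO+LY replicate 3 was the highest of the 9 libraries, and the uroplakin genes Upk1b, Upk2 and Upk3a had counts in every library of the 3 groups. Krt5 and Krt14, keratins of basal epithelial cells, had 84.3, 137 and 118 CPM and 48.96, 57.8 and 54.8 CPM in UUO+LY kidneys, against 4.69, 2.59 and 4.05 CPM and 0.781, 0.592 and 1.16 CPM in sham kidneys. No adipose gene of 8 tested passed against sham, and their summed level was 168, 209 and 103 CPM in UUO+LY kidneys, against 265, 61.7 and 62.3 CPM in sham kidneys. Of 10 genes that differ between the sexes 5 fell, among them the androgen-dependent proximal tubule gene Kap (-2.15 ± 0.38) and the prolactin receptor gene Prlr (-2.71 ± 0.46). Kap is also counted in the proximal tubule list, where 31 of 35 genes fell. Xist did not pass the filter on low counts, while the Y-linked genes Ddx3y, Eif2s3y, Kdm5d and Uty did. The part of sex in these values was not tested.

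UUO with LY2109761 and UUO with DMSO differed in fewer genes than either differed from sham, and the number rested on single libraries. In UUO+LY kidneys 486 genes were higher and 505 lower than in UUO kidneys, which is 5.15% of the genes tested, 2.52% higher and 2.62% lower. Without UUO+LY replicate 3 only 2 lower genes and no higher gene passed edgeR's test (2896 genes had an unadjusted p below 0.05, against 4317 with all libraries). Without UUO replicate 1, 16 were higher and 31 lower, without UUO+LY replicate 1, 64 and 52, and without UUO replicate 2, 99 and 165. With only the 6 libraries of these groups in the fit, 20 were higher and 34 lower. With column totals 11 genes were higher and 14 lower, and of the genes named next only Lum and mt-Nd3 still passed. The calls given next therefore hold for the full set of libraries and for TMM scaling.

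No fibrillar collagen or collagen assembly gene of 24, no tubular injury gene of 30, no chemokine or cytokine of 28 and no MHC class II gene of 7 passed against UUO. For matrix genes 4 of 20 were higher with the inhibitor and none lower. Postn had 35.7, 67.2 and 27.2 CPM in UUO+LY kidneys, 10.2, 6.45 and 5.47 CPM in UUO kidneys and 1.85, 0.666 and 3.09 CPM in sham kidneys, and both obstructed groups were separate. Lum had 18.5, 22.1 and 9.31 CPM in UUO+LY kidneys, 2.71, 2.67 and 3.54 CPM in UUO kidneys and 2.34, 1.11 and 1.86 CPM in sham kidneys. For Postn and Lum against UUO the log2 changes were 2.55 ± 0.59 and 2.48 ± 0.35 (edgeR adjusted p = 0.028 and 0.0093), Mfap5 changed by 1.49 ± 0.38 and Eln by 1.27 ± 0.24. Id1, which stood at 53.97, 77.4 and 75.03 CPM in UUO+LY kidneys, 45.6, 26.3 and 42.6 CPM in UUO kidneys and 38.4, 33.1 and 36.5 CPM in sham kidneys, was higher than UUO by 0.85 ± 0.22, and Id3 by 0.69 ± 0.17. The fibroblast genes Dpt, a matrix protein, and Pi16, a marker of adventitial fibroblasts, were higher by 1.38 ± 0.34 and 0.96 ± 0.25, although the libraries of Dpt overlapped. Adipose genes moved with them: all 8 tested lay above 0 against UUO, with a median log2 change of 2.62, and 1 passed. Their summed level was 168, 209 and 103 CPM in UUO+LY kidneys against 57.3, 66.1 and 67.5 CPM in UUO kidneys, and their part in these values was not tested. Bmp6, the BMP ligand, was lower, with 84.1, 79.7 and 107 CPM in UUO+LY kidneys against 183, 136 and 160.1 CPM in UUO kidneys (log2 change -0.82 ± 0.22, edgeR adjusted p = 0.041).

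Of 9 urothelial genes tested, 3 were higher in UUO+LY than in UUO kidneys and none lower, all 3 of them uroplakins, whose proteins line the urinary tract. Upk1b had 43.2, 143 and 59.8 CPM in UUO+LY kidneys, 12.7, 27.7 and 8.84 CPM in UUO kidneys and 7.18, 4.29 and 8.55 CPM in sham kidneys (log2 change against UUO 2.32 ± 0.58). Upk2 and Upk3a changed by 2.64 ± 0.59 and 2.86 ± 0.79, and in all of them replicate 3 was the highest library. Among the 8 largest increases against UUO were also the imprinted RNA Meg3 (12.2, 27.00 and 5.33 CPM in UUO+LY kidneys, 1.76, 2.18 and 1.72 CPM in UUO kidneys), the growth factor binding gene Igfbp6 (2.71 ± 0.66) and Fam25a (2.78 ± 0.67). In Meg3, Igfbp6, Fam25a and Postn, too, replicate 3 was the highest of the UUO+LY libraries, and Gpnmb, a macrophage membrane glycoprotein, had 5.07, 19.7 and 1.70 CPM in UUO+LY kidneys against 1.38, 1.07 and 0.643 CPM in UUO kidneys. The part of urothelium in these values was not tested. Nr4a1, a nuclear receptor among the immediate early genes, had 87.01, 67.7 and 61.2 CPM in UUO+LY kidneys, 19.8, 14.3 and 9.38 CPM in UUO kidneys and 4.55, 5.47 and 4.44 CPM in sham kidneys, with replicate 3 in the middle (log2 change against UUO 2.31 ± 0.61). Fabp4, a lipid chaperone and the adipose gene that passed, was higher by 1.21 ± 0.33, and Birc3 by 0.62 ± 0.16.

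**Figure D4:**
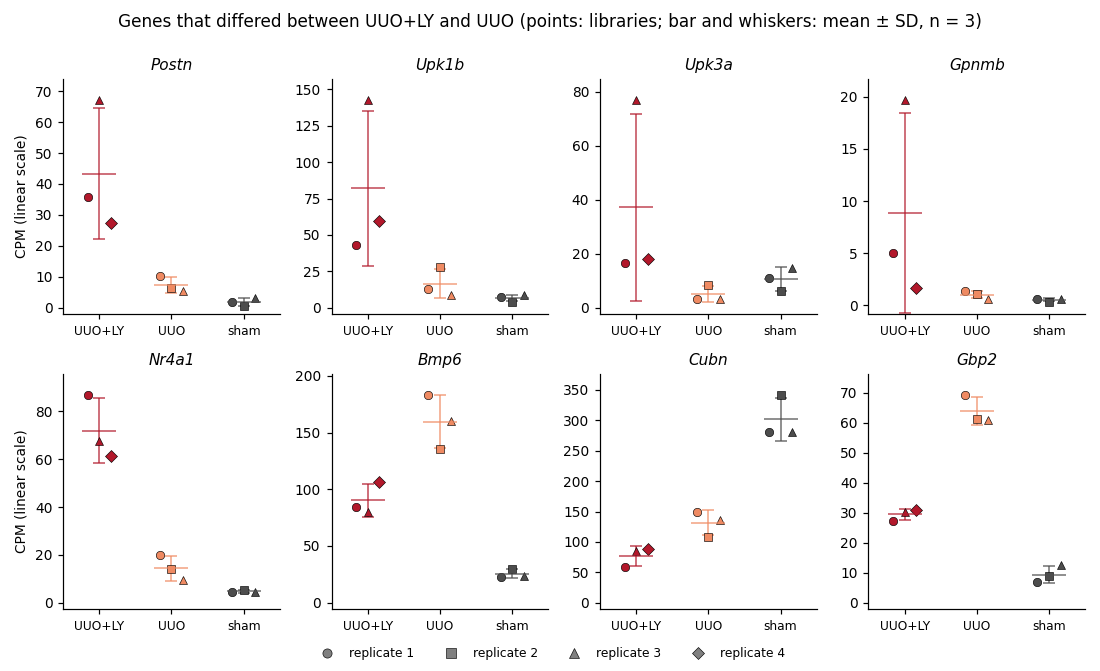
CPM (linear scale) of 8 genes that passed in UUO+LY against UUO, in each fl/fl library, with UUO+LY left, UUO in the middle and sham right; marker shapes give the replicate number, and bars and whiskers the mean ± SD of 3 libraries. Postn, Upk1b, Upk3a and Gpnmb are highest in UUO+LY replicate 3 (triangle), while Bmp6, Cubn and Gbp2 lie below UUO in every UUO+LY library.

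Against the 2.62% of all genes that were lower than in UUO, 2 of 35 proximal tubule genes and 2 of 31 fatty acid oxidation genes passed as lower. In the proximal tubule list 30 genes lay below 0 and 5 above, with a median of -0.43. In the fatty acid oxidation list 26 lay below 0 and 5 above, with a median of -0.23. The median over all genes was 0.02. No loop of Henle or distal tubule gene of 18 and no collecting duct gene of 19 passed, and of 43 oxidative phosphorylation genes 3 were lower and 2 higher. Cubn had 58.2, 84.6 and 88.2 CPM in UUO+LY kidneys, 149.9, 109 and 136 CPM in UUO kidneys and 281, 342 and 281 CPM in sham kidneys (log2 change against UUO -0.77 ± 0.18, edgeR adjusted p = 0.029). The log2 change against UUO was -0.81 ± 0.22 for Kl and -1.69 ± 0.46 for G6pc; it was -0.70 ± 0.14 and -1.03 ± 0.22 for the fatty acid oxidation genes Hadha and Etfdh, and -0.59 ± 0.16 for the complex I gene Ndufs1. Cox5b, of complex IV, and mt-Nd3, of complex I, were higher (0.50 ± 0.12 and 1.47 ± 0.36), nearer to sham. For interferon genes 3 of 26 passed and all 3 were lower than in UUO (list median -0.07), and for complement genes 2 of 14 passed, both lower (list median -0.20). Gbp2 had 27.2, 30.2 and 30.8 CPM in UUO+LY kidneys, 69.3, 61.3 and 60.99 CPM in UUO kidneys and 6.89, 8.88 and 12.4 CPM in sham kidneys, a log2 change against UUO of -1.12 ± 0.24. The transcription factor genes Irf1 and Irf9 changed by -0.77 ± 0.18 and -0.90 ± 0.24, the complement inhibitor gene Cfi by -0.88 ± 0.20 and Masp1, a protease of the lectin pathway, by -1.05 ± 0.27.

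The same contrast in tKO kidneys, with its own sham libraries, called 39.8% of the genes, 4002 higher and 3660 lower, and the libraries of 47.1% of all genes did not overlap between tKO UUO+LY and tKO sham. A test of the difference between the genotypes called 3.82% of the genes. The change was higher in tKO for 338 of them and lower for 398. Pcmt1 stood at 49.3 CPM in the library labelled tKO sham replicate 1, a level like that of fl/fl kidneys. This goes against its label if tKO stands for a loss of Pcmt1, which the labels do not spell out. Mitochondrially encoded genes took 49.7 and 69.5% of the counts in the tKO sham libraries 2 and 3. Fibrillar collagen and collagen assembly genes rose in 13 of 24 cases in tKO, against 22 of 24 in fl/fl. Of the 24, 7 passed the test of the difference, all with a lower change in tKO. The summed level of the 24 with UUO+LY was 3090, 2223 and 2421 CPM in tKO and 3024, 3058 and 2742 CPM in fl/fl. In sham kidneys, with TMM scaling, it was higher in tKO, at 861, 1158 and 1242 CPM against 640, 570 and 619 CPM in fl/fl. This order depends on the scaling, because a smaller TMM factor raises the CPM. The factors were 0.83, 0.65 and 0.35 in tKO sham libraries and 0.73, 0.72 and 0.80 in fl/fl sham libraries. The sums were not compared under column totals. Matrix glycoproteins rose in 13 of 20 cases in tKO against 19 of 20 in fl/fl, with 4 passing the difference, and macrophage genes in 21 of 24 against 20 of 24, with none. Without tKO sham replicate 1 the difference called 1287 genes higher and 1087 lower, and without tKO UUO+LY replicate 2 it called 6 and 8.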

How the data were processed

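Whole-kidney RNA was sequenced, and the table deposited by the authors holds raw read counts per gene beside FPKM values, which were not used. The submitters' processing notes name fastp, HISAT2, StringTie and GRCm38 (mm10); the counting tool, annotation and strand setting are not given in the sources used here. Its gene coordinates equal GENCODE's GRCm38 annotation for 396 of 18700 genes, so they are on a build that the table does not name and were not combined with GRCm38.p6. Gene models that share or overlap reads are therefore uncertain. Counts of 57180 genes were read, and a symbol was missing for 525; 8 listed symbols were matched by gene ID.

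The 18 libraries of 6 groups of 3 were fitted together in R 4.3.3 with edgeR 4.0.16 (limma 3.58.1): filterByExpr kept 19256 genes, library sizes were scaled by TMM, and the quasi-likelihood test had 12 residual degrees of freedom and a biological coefficient of variation of 0.283. P-values were adjusted by Benjamini-Hochberg over all genes tested, with a threshold of 0.05. The SE is the size of the log2 change divided by the square root of F. Where a group had no count, a floor of 3 counts over the group was used, which covers counting error only. The steps were run on simulated counts with a small set of changed genes and otherwise the same composition in every library. Scaling under the large changes of composition seen here was thus not tested.

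Genes were named by rule: TGF-β core genes, the 12 largest changes each way with a mean of at least 5 CPM and no overlap, in each of 43 lists up to 4 members with the smallest and 2 with the largest p, the 8 largest changes each way and list members past the threshold against UUO, and the 6 largest interactions each way. Some genes that the rule selects are not reported here, although counts and medians of lists include them. Members and lists were chosen with earlier results of these data known. Alternatives were DESeq2 1.42.0, other scalings and filters, fewer groups, a replicate block and leaving out each library. Libraries numbered 1 and 3 did not deviate together between fl/fl UUO+LY and fl/fl sham, and other groups were not checked. Numbers were not treated as pairs. Promoter sequences come from RefSeq on GRCm38.p6, with coordinates counted from 1.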

Additional observations from a re-analysis of the deposited data

Results flagged for a closer look

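The change between UUO+LY and sham kidneys was higher in tKO than in fl/fl mice for 338 genes and lower for 398. The calls come from edgeR's test of the difference itself (tKO minus fl/fl), which concerns changes and not levels. The library labelled tKO sham replicate 1 has a Pcmt1 level like that of fl/fl kidneys, so its label is in doubt. Without it these counts moved to 1287 and 1087. Values are given with no cause, and none was tested.

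Among collagens, Col1a1 differed by -1.56 on the log2 scale (edgeR adjusted p = 0.041). The call was lost when any single fl/fl sham library was left out, or fl/fl UUO+LY replicate 1 or 3, tKO sham replicate 2 or tKO UUO+LY replicate 2 or 3 (adjusted p between 0.055 and 0.10), and with column totals, no filter or the replicate block (between 0.060 and 0.26). Among immediate early genes the differences were -6.87 for Nr4a1 (edgeR adjusted p = 0.0071), -5.19 for Fos (0.016) and -5.06 for Egr1 (0.011). In fl/fl kidneys Nr4a1 had 87.01, 67.7 and 61.2 CPM with UUO+LY and 4.55, 5.47 and 4.44 CPM in sham, and in tKO kidneys 14.6, 11.1 and 11.5 CPM with UUO+LY and 12.1, 104 and 177 CPM in sham. The tKO sham libraries 2 and 3 were the highest of these 12 libraries. The chemokine Cxcl1 differed by -5.35 (edgeR adjusted p = 0.039), but by -2.05 without tKO sham replicate 3 (adjusted p = 0.066). Its call was also lost when any single fl/fl sham library was left out, or fl/fl UUO+LY replicate 1 or 3, tKO sham replicate 2 or tKO UUO+LY replicate 2 or 3 (adjusted p between 0.056 and 0.097), and with column totals, no filter or the block (between 0.054 and 0.087). A further difference was that of the signalling adaptor Traf3, -5.72 (edgeR adjusted p = 0.023), with 30.9, 35.3 and 33.3 CPM in tKO sham kidneys.

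Differences in the other direction were 4.52 for the amino acid transporter gene Slc7a12 (edgeR adjusted p = 0.020), 3.81 for the splicing factor gene Mbnl1 (0.034), 6.70 for the actin-binding gene Ablim1 (0.033) and 6.29 for the cholecystokinin receptor gene Cckar (0.041). Ablim1 had 3.10, 6.14 and 5.91 CPM in fl/fl UUO+LY kidneys against 129.5, 111 and 126 CPM in fl/fl sham kidneys, and 80.9, 9.57 and 92.1 CPM in tKO UUO+LY kidneys against 9.98, 12.4 and 20.7 CPM in tKO sham kidneys. Leaving out single libraries also ended calls of Traf3 (fl/fl sham 2 or 3, tKO sham 2, tKO UUO+LY 2 or 3), Ablim1 (fl/fl sham 2 or 3, fl/fl UUO+LY 1 or 3, tKO sham 2, tKO UUO+LY 2 or 3), Mbnl1 (any fl/fl sham library, fl/fl UUO+LY 1 or 3, tKO sham 2 or 3, tKO UUO+LY 2 or 3) and Cckar (fl/fl sham 2 or 3, any fl/fl UUO+LY library, tKO sham 2 or 3, tKO UUO+LY 2 or 3), with adjusted p between 0.050 and 0.11. The call of Slc7a12 was lost without fl/fl UUO+LY replicate 3 or tKO UUO+LY replicate 3 (adjusted p = 0.060 and 0.053), and that of Fos without tKO UUO+LY replicate 2 (0.054).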

How the results depend on the processing

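Replacing TMM by RLE, leaving mitochondrially encoded genes out of TMM, requiring a mean of 1 CPM, or fitting only the 9 fl/fl libraries kept every count of calls of UUO+LY against sham within 1.5 times. With column totals the counts higher and lower were 8017 and 991 for UUO+LY against sham, 11 and 14 for UUO+LY against UUO, 8547 and 906 for UUO against sham, 10932 and 631 for tKO UUO+LY against sham, and 8 and 6 for the genotype difference. The share of higher calls was then 89.0, 90.4 and 94.5% in the sham comparisons of UUO+LY, UUO and tKO UUO+LY, and median changes moved by 0.67, 0.74 and 0.98. DESeq2 gave 977 and 1054 against UUO and 831 and 986 for the genotype difference; without the filter these were 153 and 207, and 98 and 84. With only the 2 groups in the fit, 20 and 34 genes passed against UUO.

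Leaving out each library in turn gave 3609 to 4017 higher and 3106 to 3393 lower genes for UUO+LY against sham, 0 to 580 and 2 to 689 against UUO, 3352 to 3835 and 2889 to 3445 for UUO against sham, 3365 to 4041 and 2898 to 3522 in tKO, and 6 to 1287 and 8 to 1087 for the genotype difference. The difference in mitochondrial share ranged between -21.7 and -19.4 points. With the replicate number as a block 3798 and 3269 genes passed for UUO+LY against sham. Against UUO 421 and 546 passed, and for the genotype difference 314 and 221. Deviation correlations of same-numbered fl/fl UUO+LY and sham libraries were -0.018 for number 1 and -0.042 for number 3. Other groups were not checked, and whether the numbers stand for pairs or batches is not settled.

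Signs reversed under column totals for Bmp7 (0.16), Ccnd1 (0.15), Csf1r (0.52), P4ha1 (0.23), Pcmt1 (0.18), Smad4 (0.59), Smad7 (0.28) and Timp3 (0.22). Leaving out 1 library gave Smad4 values between -0.16 (without UUO+LY replicate 4) and 0.026 (without sham replicate 1) and Tgfbr1 values between -0.22 (without UUO+LY replicate 4) and 0.81 (without UUO+LY replicate 3). Tgfbr1 also reversed with the block (-0.65), and Umod with the block (-0.12), without sham replicate 1 (-0.0057) and without UUO+LY replicate 4 (-0.074). Pcmt1 passed in the fit of only the fl/fl libraries (log2 change -0.50, edgeR adjusted p = 0.028). The cause was not tested.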

Other observations

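Some genes took separate low and high levels across the fl/fl libraries. Crispld2, a secreted protein, had 0.672, 0.66 and 1.36 CPM in UUO+LY kidneys, 53.8, 38.3 and 41.9 CPM in UUO kidneys and 14.4, 2.44 and 22.6 CPM in sham kidneys. Ttll12, a tubulin-ligase-like protein, had 1.96, 2.38 and 4.70 CPM in UUO+LY kidneys, 34.6, 33.2 and 27.98 CPM in UUO kidneys and 22.4, 22.6 and 23.7 CPM in sham kidneys, and its log2 change against UUO was -3.40 ± 0.33 (edgeR adjusted p = 5.9e-04). Golm2 ran the other way, with 29.2, 26.1 and 28.6 CPM in UUO+LY kidneys, 4.38, 3.88 and 4.77 CPM in UUO kidneys and 10.2, 3.62 and 3.28 CPM in sham kidneys. The pseudogene Bnip3l-ps had 0.103, 0.132 and 0.0969 CPM in UUO+LY kidneys, 16.2, 15.2 and 15.4 CPM in UUO kidneys and 0.142, 0.222 and 0.129 CPM in sham kidneys; it can share reads with its parent gene and is uncertain. Crispld2 also took both levels within tKO groups, with 0.893, 53.7 and 33.6 CPM in tKO UUO+LY kidneys and 45.3, 0.777 and 32.5 CPM in tKO UUO kidneys. Drops in 1 library were also counted: genes more than 5 times below both group mates, with both mates at 20 CPM or more. They numbered 42, 33 and 39 in the fl/fl UUO+LY libraries, 9, 11 and 9 in UUO and 16, 10 and 12 in fl/fl sham. In tKO libraries they numbered between 20 and 60, and the cause of the drops was not tested.

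The Nnt gene models share almost the same span of chromosome 13 in the deposited table, 119472064 to 119545488 and 119471984 to 119545533, so the results give the level of their sum.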
